A study of Mus musculus with 16 samples.

Results

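The 19 Hnf4a peaks listed on day 30 inside the HoxA homeobox gene cluster of mouse chromosome 6 are described here, out of 448 Hnf4a peaks of that day and 4839 peaks in all 8 lists of the study. The members were chosen by position: every peak inside a 120 kb window, chr6:52100000-52220000 on build mm9, which was picked because Hnf4a day 30 peaks crowd there. Their number, place and spacing are therefore a description, without a test. The peaks ran from chr6:52173051 to 52190430, the part of the cluster named in that choice for Hoxa9, Hoxa10 and Hoxa11.

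The study used chromatin immunoprecipitation followed by sequencing (ChIP-seq) to map 4 transduced transcription factors in C57BL/6 mouse embryonic fibroblasts, prepared from embryos at 13.5 days post coitum. The groups were fibroblasts infected with Foxa1, Foxa2, Foxa3 or Hnf4alpha (written Hnf4a here), each collected on day 2 and on day 30, and each precipitated with an antibody to the factor it received. Each factor and day had 1 ChIP sample with 1 peak list, so no value has an error between samples. The 8 input samples (no antibody) were not analysed here. All groups share the strain and cell source, and no uninfected group was analysed. The labels name neither the vector or promoter that drove the factors nor the number of embryos or clones behind a culture. Peak lists hold no expression values, so the cell type was not checked against markers, and read depth is unknown.

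Hnf4a is a nuclear receptor that binds DNA as a homodimer and drives many hepatocyte genes. Hox genes encode homeodomain transcription factors that give cells their place along the body axis. They lie side by side in clusters, with genes for posterior positions at one end, and fibroblasts in culture are known to keep the Hox expression of the place they came from. Hoxa9 acts in limb and in blood progenitors, Hoxa10 in uterus and limb, and Hoxa11 in limb, kidney and uterus. In the RefSeq gene order of another build, GRCm38.p6, the coding genes of the posterior end follow each other as Hoxa7, Hoxa9, Hoxa10, Hoxa11 and Hoxa13. The microRNA gene Mir196b lies between Hoxa9 and Hoxa10, and the antisense gene Hoxa11os lies next to Hoxa11. No mm9 annotation or genome was used, so no peak was assigned to an exon, intron, untranslated region or start site. Whether the block reaches into Hoxa11 was not determined.

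The 3 genes named for the block differ in the bases before their start sites, shown here because no sequence of the peaks themselves was read. These are the 250 bases before the RefSeq start, on the minus strand of chromosome 6 (GRCm38.p6), with every CG dinucleotide in capitals. For Hoxa10, which has 2 start sites in the table, the one farther upstream is shown.
Hoxa9: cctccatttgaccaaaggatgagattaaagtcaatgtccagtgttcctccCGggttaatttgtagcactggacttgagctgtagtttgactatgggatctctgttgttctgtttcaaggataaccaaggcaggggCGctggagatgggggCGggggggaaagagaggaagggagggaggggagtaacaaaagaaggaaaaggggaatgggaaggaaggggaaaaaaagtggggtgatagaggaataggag
Hoxa10: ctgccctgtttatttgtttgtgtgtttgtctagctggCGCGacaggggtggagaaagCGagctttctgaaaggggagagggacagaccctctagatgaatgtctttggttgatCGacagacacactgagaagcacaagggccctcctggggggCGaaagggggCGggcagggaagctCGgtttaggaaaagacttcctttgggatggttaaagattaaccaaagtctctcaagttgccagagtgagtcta
Hoxa11: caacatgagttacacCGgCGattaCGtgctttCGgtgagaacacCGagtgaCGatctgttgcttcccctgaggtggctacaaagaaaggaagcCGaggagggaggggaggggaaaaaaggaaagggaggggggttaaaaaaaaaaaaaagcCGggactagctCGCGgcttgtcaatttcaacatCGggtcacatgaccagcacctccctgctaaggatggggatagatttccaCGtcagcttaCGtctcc

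Hoxa9 has 3 CG dinucleotides in these bases, Hoxa10 has 7 and Hoxa11 has 13. Over the full 300-base windows, which add 50 bases after the start, the counts were 4, 12 and 15, against a median of 7 over 32851 RefSeq promoter windows. GC content of the windows was 49.67% for Hoxa9, 54.33% for Hoxa10 and 51% for Hoxa11, near the median of 52.7% over all windows. The second Hoxa10 window was richer, with 21 CG dinucleotides and 57.33% GC. Hoxa13, at the posterior end of the cluster, had 45 and 81%. So the 3 genes do not share a CG-rich start window, and they vary more among themselves in CG number than in base composition.

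The 4 windows of Hoxa9, Hoxa10 and Hoxa11 were also searched on both strands for 3 motifs that do not contain each other. CAAAGTCCA, a motif typical of HNF4 proteins, was in none of the 4 and in 0.475% of all windows. AGGTCA, the core site of many nuclear receptors, was in none of them and in 16.3% of all windows. TGTTTAC, a forkhead motif, was in none and in 3.65%. Over the whole cluster, 9 of 11 HoxA genes had a window in the table, and Hoxa5 had the core site once. These are matches of letters in another build, and no peak was placed on them.

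In the peak lists, the HoxA window held 19 Hnf4a day 30 peaks and no peak of any other list. The 7 other lists were Hnf4a day 2, which had 10 peaks in all and none on chromosome 6, and the 6 Foxa lists. Foxa1 day 30, with 186 peaks on the rest of chromosome 6, had none in the window. Foxa1 day 2 had 17 on the rest of the chromosome, Foxa3 day 30 had 12, Foxa2 day 30 had 10, and Foxa2 day 2 and Foxa3 day 2 had 2 each. Per 100 kb of the rest of chromosome 6, this was 0.125 for Foxa1 day 30 and 0.00135 to 0.0114 for the other Foxa lists. At these densities a 120 kb window without a listed Foxa peak is the usual case, so their absence is not particular to HoxA. The depth and the threshold of each list are unknown, so the absence of a listed peak does not show absence of binding. The short Hnf4a day 2 list cannot tell whether the HoxA sites appeared between the days.

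**Figure D1:**
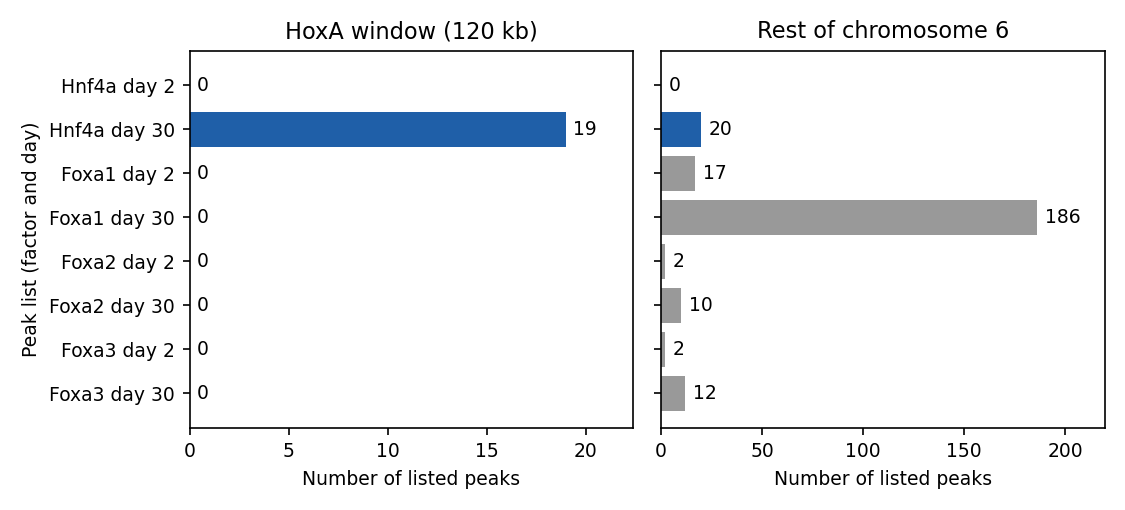
Number of listed peaks (x axes) in the 120 kb HoxA window and on the rest of chromosome 6 for each factor and day (y axis), with 1 sample per bar. Hnf4a day 30 has 19 peaks in the window and 20 elsewhere on the chromosome, and the 7 other lists have 0 in the window.

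On each side of the block, the nearest peak of another list was one of Foxa1 day 30. One lay 1056 kb before it (chr6:51117107-51117284, score 9.08) and one 177.0 kb after it (chr6:52367408-52367514, score 7.53). The nearest Foxa2 day 30 peak began 400.1 kb after the block, at position 52590517. The nearest Foxa1 day 2 peak began 1375 kb after it, at 53565703. Foxa3 was farther off, with its closest peaks of both days 8885 kb before the block. Widening the window by 100 kb on each side added no peak of any list.

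Against the rest of its own chromosome, the window was dense. It held 15.8 Hnf4a day 30 peaks per 100 kb, against 0.0135 per 100 kb over the rest of chromosome 6, a ratio of 1176. The 19 peaks made up 48.7% of the 39 Hnf4a day 30 peaks of chromosome 6 and 4.24% of the whole list. Since the window was placed on these peaks, the ratio and both shares describe the choice. When chromosome 6 was tiled with 1240 windows of the same length, no other window held more than 2 Hnf4a day 30 peaks, and no window held more than 4 Foxa1 day 30 peaks. With peaks within 500 bp of each other counted once, the HoxA window held 8 and the ratio was 550.2.

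The 20 Hnf4a day 30 peaks elsewhere on chromosome 6 were scattered. They comprised 14 single peaks and 3 pairs within 1 kb, with a median distance of 4.13 Mb between neighbours and up to 26.9 Mb. The nearest before the block was a pair whose second peak, chr6:51121807-51122099, had the highest score of the chromosome, 14.2, and ended 1051 kb away. The nearest after it, chr6:58901595-58901699 with a score of 5.31, lay 6711 kb away. The next highest scores were 11.4 at chr6:12944342-12944428 and 11.3 at chr6:86476941-86477039. Of the 20, 1 peak was in another list: chr6:103599168-103599254 overlapped a Foxa3 day 2 peak. The HoxA block thus stood alone, with no other Hnf4a day 30 peak within 1 Mb.

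Inside the block, the peaks fell into 8 groups when neighbours at most 500 bp apart were joined. The block opened with a single peak at chr6:52173051-52173169, 119 bp wide with a score of 8.12. After 1421 bp came 3 peaks between 52174591 and 52175476, with scores of 6.00, 5.62 and 9.24. The middle one, at 57 bp, had the width of the narrowest peaks in the list. Then 2 single peaks followed, chr6:52176821-52176887 (score 8.89) and chr6:52177617-52177721 (9.32).

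The largest group, and the stretch of 2 kb with the most peaks, was a run of 7 peaks over 1671 bp, chr6:52178628-52180298. Its peaks were 122, 104, 124, 106, 228, 128 and 86 bp wide, with gaps of 65 to 252 bp. Their scores, in order of position, were 7.66, 5.10, 8.44, 10.001, 6.94, 8.66 and 9.41, so high and low scores lay side by side within the run. The second of them had 5.10, the lowest score of the whole Hnf4a day 30 list, a value that 9 of its 448 peaks share. The fifth, chr6:52179719-52179946, was at 228 bp the widest of the block.

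After a gap of 1618 bp, 3 peaks lay between 52181917 and 52182417, with scores of 6.00, 7.90 and 9.97. A pair at 52182935 to 52183286 followed 517 bp later, with scores of 7.47 and 9.64. The last peak stood apart: chr6:52190348-52190430 came after an empty 7061 bp and had the highest score of the block, 10.4, which ranked 46 among the 448. Without it, the block was 18 peaks in 10.2 kb, or 1.76 per kb, against 19 in 17.4 kb, or 1.09 per kb. Over the 18 gaps the median was 211.5 bp, with 11 under 500 bp, 5 under 100 bp and 4 over 1 kb. The spacing was thus uneven, with tight runs set apart by empty stretches.

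**Figure D2:**
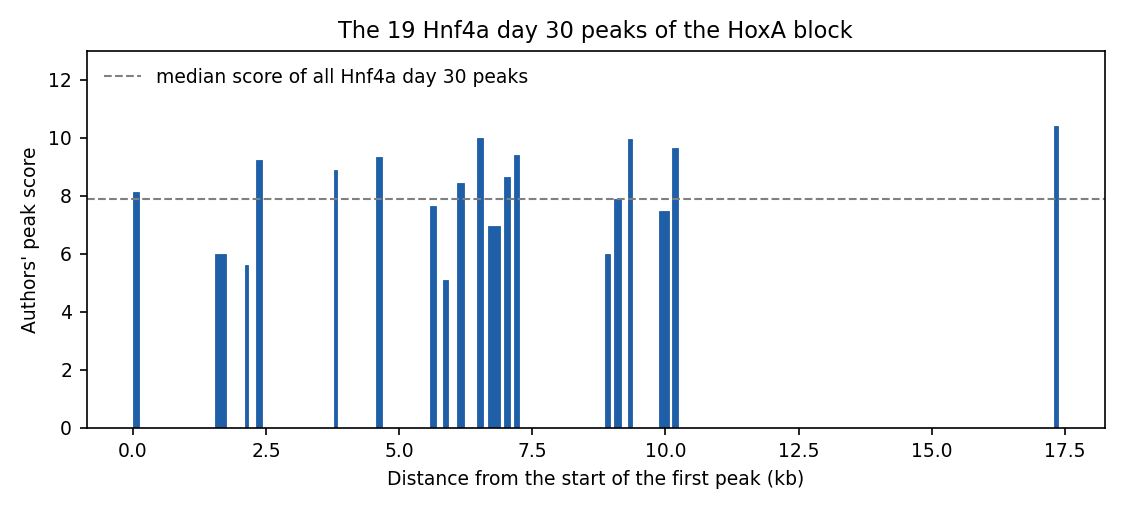
The 19 Hnf4a day 30 peaks of the HoxA block by distance from the start of the first peak (x axis, kb). Each bar has the width of its peak to scale and the height of the authors' score (y axis), and the dashed line is the median score of the whole list, 7.90. A run of 7 peaks lies in the middle, and the last peak stands apart after 7061 bp.

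The peaks of the block were of moderate score. The authors' score per peak, whose scale is not given in the sources used here, ran from 5.10 to 10.4 in the block, with a median of 8.44. Of the 19 peaks, 11 scored above the list median of 7.90, or 57.9%, where 48.9% of all 448 peaks did. On the rest of chromosome 6 the median was 7.62 and 8 of 20 peaks scored above the list median. The highest score of the list was 15.3, that of the HoxA block 10.4.

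In median width the HoxA peaks were close to the pooled peaks of other blocks and above the peaks outside blocks. Their median was 110 bp, with a range of 57 to 228 bp. It was 95.5 bp on the rest of chromosome 6 and 87 bp over the whole list. Peaks in the 8 other blocks, pooled, had a median of 108 bp, and the 288 peaks outside blocks 82 bp. The chromosome 9 block holds 74 of the pooled peaks, and without chromosomes 9 and 2 the median was 103.5 bp. Block by block, the medians of the 8 ran from 82 to 136 bp, so some blocks were near the peaks outside blocks. Of the HoxA peaks, 14 of 19 were wider than the list median (73.7%, against 49.8% of all peaks), as were 100 of 141 in other blocks (70.9%) and 109 of 288 outside blocks (37.8%). The smallest width of 57 bp was found in 1 HoxA peak (5.26%), in 7 of 141 peaks of other blocks (4.96%), in 63 of 288 outside blocks (21.9%) and in 15.8% of the whole list. The ranges overlapped throughout, and peaks of 1 sample are not replicates, so no test was made.

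The 3 HoxA peaks wider than 150 bp scored at most 7.47, below the list median. In other blocks 8 of 18 such peaks scored above it (44.4%), and outside blocks 9 of 20 (45.0%). In the whole list 17 of 41 did. The HoxA side of this contrast is only 3 peaks. Of the 5 HoxA peaks narrower than 90 bp, 4 scored above the list median, as did 34 of 45 in other blocks (75.6%), 85 of 182 outside blocks (46.7%) and 123 of 232 in the whole list (53.0%). Spearman's rho between width and score was -0.28 over the 19 HoxA peaks, -0.22 over the 141 in other blocks, -0.11 over the 288 outside blocks and -0.08 over all 448. These weak values describe neighbouring peaks of 1 library, and the HoxA block is close to the other blocks in them.

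**Figure D3:**
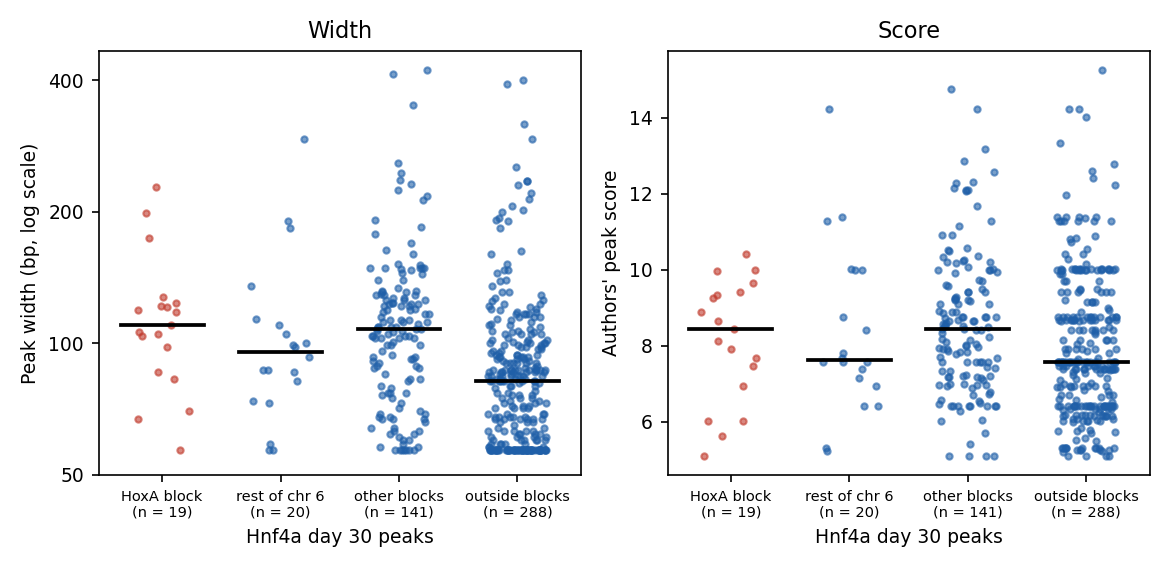
Width (left, bp, log scale) and authors' score (right) of each Hnf4a day 30 peak, as points, in the HoxA block, on the rest of chromosome 6, in the 8 other blocks and outside all blocks. The black lines are medians, and the 20 peaks on the rest of chromosome 6 also count among the 288 outside blocks. Median width is 110 bp in the HoxA block and 82 bp outside blocks, and the HoxA scores end at 10.4.

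The Hnf4a day 30 list had 9 blocks in all, a block being 5 or more peaks chained over gaps of at most 20 kb. They held 160 of the 448 peaks (35.7%), all 19 HoxA peaks among them. The HoxA block was the second in number of peaks, after one of 74 peaks at the start of chromosome 9 (chr9:3000026-3038038), and ahead of blocks of 18 and 8 on chromosome 11 (chr11:120091618-120099287 and chr11:120046638-120051067). A block of 15 lay on chromosome 5 (chr5:143574274-143585201), one of 9 on chromosome 2 (chr2:98502420-98507457) and one of 7 on chromosome 1 (chr1:165238968-165243013). Chromosome 17 (chr17:84584468-84586496) and chromosome 3 (chr3:99045171-99060624) had 5 each. None of these 8 blocks was assigned to a gene.

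By density the order was different. The HoxA block had 1.09 peaks per kb, the eighth of the 9. Without its last peak, as with gaps of at most 5 kb, it had 1.76 per kb and ranked 6 of 8. The chromosome 17 block had 2.46 per kb, the 18-peak chromosome 11 block 2.35 and the chromosome 5 block 1.37, while the chromosome 3 block, also with 1 long gap, had 0.324. Peaks covered 12.8% of the HoxA span, 13.7% of the chromosome 5 span and 27.1% of the 18-peak chromosome 11 span. The median gap of 211.5 bp was inside the range of the others, 76.5 to 950.5 bp. The median score of 8.44 was also inside their range, 7.56 to 9.69, and equal to that of the chromosome 5 block. The highest HoxA score, 10.4, was below the highest of 7 of the other 8 blocks, which ran from 10.9 to 14.8. The chromosome 2 block, with 8.88, was lower.

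**Figure D4:**
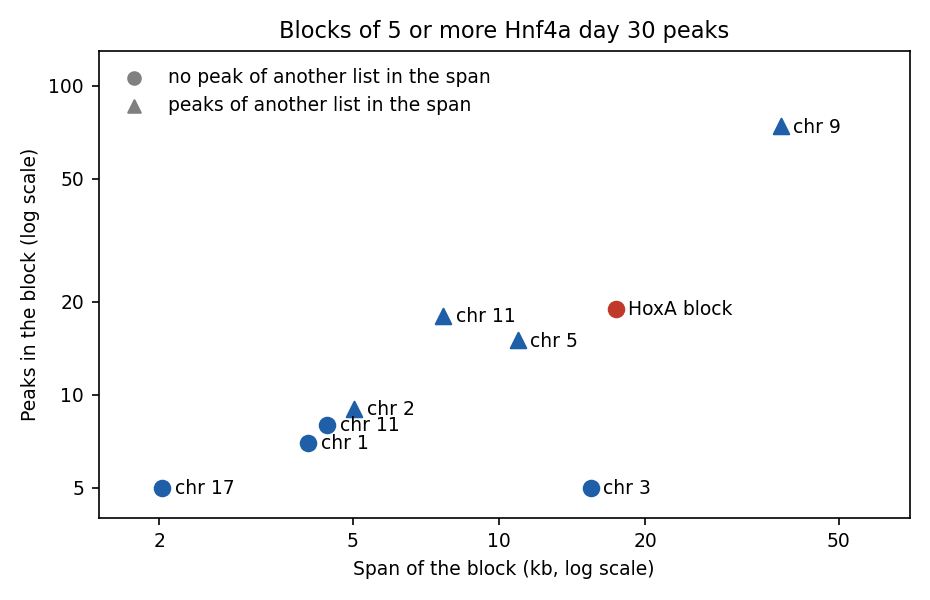
Peaks per block (y axis, log scale) against the span of the block (x axis, kb, log scale) for the 9 blocks of Hnf4a day 30, with the HoxA block in red. Triangles mark blocks with peaks of another list in their span. The HoxA block, with 19 peaks in 17.4 kb, has no such peak, while the chromosome 9 block has 74 peaks in 38.0 kb.

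The blocks also differed in whether other factors were listed there. None of the 19 HoxA peaks overlapped a peak of another list by 1 bp or more, where 17.2% of all 448 Hnf4a day 30 peaks did. Most of that share came from the chromosome 9 and 2 blocks, where 59 of 74 and 6 of 9 peaks overlapped another list, Foxa3 day 2 above all. In the other blocks without these, 2 of 58 peaks overlapped (3.45%), and outside blocks 10 of 288 (3.47%). The 19 HoxA peaks lie within 17.4 kb of 1 sample, where no other list has a peak. Their count of 0 is thus not 19 separate observations, and a difference from these low shares was not tested. In all, 5 of the 9 blocks had no peak of another list anywhere in their span: HoxA, chromosomes 1, 3 and 17, and the 8-peak block of chromosome 11. The 18-peak chromosome 11 block held 1 Foxa1 day 30 and 1 Foxa3 day 30 peak, neither overlapping a Hnf4a peak. The chromosome 5 block held 1 peak each of Foxa1 day 2, Foxa1 day 30 and Foxa2 day 30.

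Blocks by the same definition were present in 3 Foxa lists, none of them on chromosome 6. Foxa1 day 30 had 13, with at most 9 peaks in a block, and they held 2.37% of its 3331 peaks. Foxa3 day 30 had 1 block of 6 peaks. Foxa3 day 2 had 5, with 80.1% of its 146 peaks and 92 in the block with the most peaks. Hnf4a day 2, Foxa1 day 2 and both Foxa2 lists had none. Of the 4 day 30 lists, that of Hnf4a thus had the largest share of its peaks in blocks, 35.7%, which was not tested with 1 sample per list. Within that share, the chromosome 9 block held 16.5% of the list and the chromosome 2 block 2.01%. The HoxA block held 4.24% and the remaining blocks 12.9%.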

How the data were processed

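Each ChIP sample has 1 deposited peak list. Build mm9 and the tools MACS2 2.1.0, BWA 0.6.2 and bedtools 2.16.2 are listed, per the submitters' processing notes, with no role, threshold or use of the inputs. The deposited lists have no header and give start, end and a score per peak. The score is the authors' own, its scale is not given in the sources used here, and it was used to describe and filter peaks within a list. Positions are printed 1-based. Sequences and gene order are from RefSeq, GRCm38.p6, and no position was converted.

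The window came from the choice of the region. A peak belonged to it if it lay wholly inside. Chromosome 6 length was the largest peak end over the lists, 148686995. Gaps are the bases between neighbouring peaks. Overlap meant at least 1 bp. Python 3.11.15, NumPy 2.4.6, pandas 2.3.3, SciPy 1.17.1 and Matplotlib 3.10.9 were used. The code for block finding was run on simulated lists, and in 20 of 20 all planted blocks were recovered. Planted gaps were all below the 20 kb cut and the other peaks lay far apart. This checks the code only and says nothing about the blocks of the real list. The members and gene lists were chosen with earlier results of these data known. Regions were named by a rule: all HoxA peaks, all other blocks, the chromosome 6 peaks with the 3 highest scores, and the nearest peaks on each side. No test was made, since members were chosen by position and each group had 1 sample.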

Additional observations from a re-analysis of the deposited data

How the results depend on the processing

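The alternatives concern the score threshold, merging, the definition of a block and the overlap, and 26 of 48 recomputed values stayed within 1.5 times (ranks: equal). With peaks at or above the median score of the list, the window held 12 peaks, the ratio to the rest of chromosome 6 was 1857, the median gap 759 bp and the list had 5 blocks. With a score of at least 7 the median gap was 517 bp. With peaks within 500 bp merged, the window held 8, the ratio was 550.2, the median gap 1344 bp, the median width 235.5 bp and there were 3 blocks. The number of blocks was 19 with at least 3 peaks and 4 with at least 10. Gaps of at most 2 kb or 5 kb shortened the HoxA block to 10.2 kb by leaving out its last peak. By number of peaks the HoxA block was the second, alone, in 5 of the 8 settings. It tied with 1 other block for that place with gaps of at most 5 kb (18 peaks each; likewise at 2 kb) and with merged peaks (8 each), and was the third with gaps of at most 50 kb, which join both chromosome 11 blocks. Its place by peaks per kb ran from 3 of 3 blocks (merged) to 15 of 19 (at least 3 peaks). No overlap setting, centres within 5 kb included, gave a HoxA peak shared with another list. The nearest peak of another list lay 177.0 kb from the block. Neither these settings nor the window widened by 100 kb could therefore give another count, and their unmoved values are among the 26. No paired analysis was possible because each factor and day had 1 sample. Depth is unknown, so missing peaks could not be told apart from unbound sites.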
